A study of Bos taurus with 12 samples.

Results

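The genes described here encode a mucosal antibody route: PIGR, the epithelial receptor that carries antibody into the lumen, and 3 transcripts known from plasma cells, JCHAIN, IGHM and DERL3. They were selected on their gene symbols, with their log2 values over the same 12 arrays already known, so every difference between groups given for them is a description and carries no test. They are 4 of the 9155 genes that the array's annotation names through a probe set with a single symbol, and 5 probe sets stand for them. Of these 5, 4 passed the filter on dim values, a log2 value above 4 on at least 3 arrays. PIGR is probe set Bt.4695.1.S1_at, JCHAIN is Bt.3843.1.S1_at and IGHM is Bt.7783.1.S1_a_at. DERL3 has Bt.21056.2.S1_at, which passed, and Bt.21056.1.S1_at, which did not.

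The samples are endometrium of Simmental heifers, taken by biopsy in the cycle that preceded the transfer of an embryo, on day 7 or day 14. The labels name no treatment. NPd7 and NPd14 come from heifers that did not conceive and came back into heat. CDd7 and CDd14 come from heifers that carried to the birth of a calf. The outcome lay in the future when the tissue was taken, and all 4 groups are non-pregnant endometrium. Each group has 3 arrays, and each array is taken to hold the RNA of 1 pool. A title in CDd14 gives its pool 2 different numbers, 2 and 3, and the replicate number, 3, is used throughout. The sources used here state neither how many heifers make up a pool nor whether the same animals were sampled on both days, so p-values measure the spread between pools. A biopsy holds epithelium, stroma, vessels and immune cells in unknown proportions. In such bulk tissue, fewer cells of a type and less RNA per cell cannot be told apart.

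Plasma cells beneath a mucosal epithelium secrete antibody of which the IgA and IgM classes are joined into polymers by the J chain. The polymeric immunoglobulin receptor on the base of the epithelial cell binds these polymers through the J chain, carries them across the cell and releases them into the lumen with a piece of itself, the secretory component. The receptor is made by the epithelium and its cargo by the plasma cell, so transcripts of the same route report on different cells. Such secreted antibody is one of the known defences of the uterine lumen.

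PIGR was abundant in every pool. Its log2 value was 10.80, 9.89 and 10.61 in NPd7 pools 1, 2 and 3, and 9.77, 8.70 and 10.06 in the CDd7 pools. At day 14 it was 10.71, 10.43 and 11.35 in NPd14 and 10.69, 11.01 and 10.83 in CDd14. CDd7 pools 1 and 2 were the lowest of the 12, while CDd7 pool 3 lay above NPd7 pool 2. The mean was highest in CDd14 (10.85 ± 0.16, SD, n = 3) and NPd14 (10.83 ± 0.47), followed by NPd7 (10.43 ± 0.48) and CDd7 (9.51 ± 0.72). The first 3 means in this order did not differ from their neighbours beyond the SD, and the step down to CDd7 did.

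Between the outcomes, PIGR was 0.92 ± 0.50 lower on the log2 scale in CDd7 than in NPd7 (difference ± SE from the group SDs), 1.89-fold, with overlapping pools. At day 14 the CD and NP means differed by 0.02 ± 0.29. Between the days in CD, PIGR was 1.33 ± 0.43 higher at day 14, 2.52-fold, and every CDd14 pool lay above every CDd7 pool by at least 0.63. In NP the day 14 mean was 0.40 ± 0.39 above that of day 7, with overlap. The day difference was thus 0.94 ± 0.58 larger in CD than in NP. CDd7 pool 2 weighed most: without it the day 7 difference was -0.51, the day difference in CD 0.93 and their excess over NP 0.53.

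**Figure D1:**
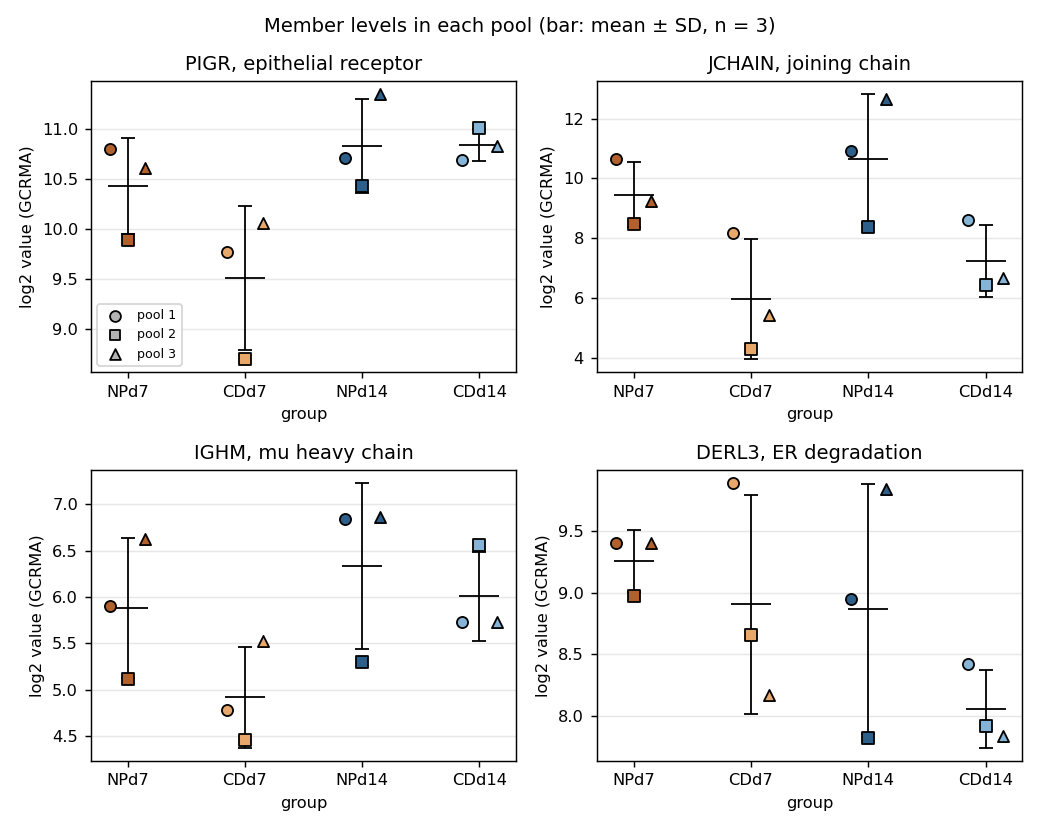
Log2 value (GCRMA) of PIGR, JCHAIN, IGHM and DERL3 in each pool of the 4 groups, with the mean and SD of 3 pools as bars and the pool number as the symbol; each panel has its own vertical range. JCHAIN spanned 4.29 to 12.66, and PIGR 8.70 to 11.35 with CDd7 pool 2 lowest.

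JCHAIN, the small chain that joins IgA and IgM units and that PIGR recognises, had the widest range of the 4. It measured 10.64, 8.48 and 9.26 in NPd7 pools 1, 2 and 3 but 8.18, 4.29 and 5.44 in CDd7 (log2). In NPd14 it measured 10.93, 8.37 and 12.66, and in CDd14 8.62, 6.45 and 6.67. All 3 CDd7 pools lay below all 3 NPd7 pools, by a margin of 0.29. At day 14 the groups overlapped, since CDd14 pool 1 lay above NPd14 pool 2.

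For CD minus NP at day 7 the JCHAIN difference was -3.49 ± 1.32 (log2 ± SE; 5.97 ± 2.0 against 9.46 ± 1.09, SD, n = 3), 11.2-fold lower in CD. At day 14 it was -3.41 ± 1.43 (7.25 ± 1.19 against 10.65 ± 2.16), 10.6-fold lower in CD. In CDd7, pools 2 and 3 (4.29 and 5.44) lay close to the filter. The size of the day 7 fold therefore depends on the floor that GCRMA sets. Of the 13449 probe sets kept, 0.0818% had a difference as low or lower at day 7 and 0.0446% at day 14. These shares are descriptions and no test, since JCHAIN was selected with its values known. Its pooled SD within groups was at the 99.2nd percentile, and a wide spread makes large differences of means more frequent. Between days JCHAIN differed less: 1.28 ± 1.34 higher at day 14 in CD and 1.20 ± 1.40 in NP, with overlap in both. The outcome difference was about the same on the 2 days, the difference of differences being 0.08 ± 1.94.

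The pools of a group differed widely in JCHAIN. Its range over the 12 arrays, 8.38 on the log2 scale, was at the 99.8th percentile of the kept probe sets, and its pooled SD within groups, 1.68, at the 99.2nd. Left out 1 pool at a time, the day 7 difference ran from -4.59 (without CDd7 pool 1) to -2.65 (without CDd7 pool 2). The day 14 difference ran from -4.55 (without NPd14 pool 2) to -2.40 (without NPd14 pool 3), so CD remained lower in every case. In order of the means, NPd14 and NPd7 lay within their SD of each other, as did CDd14 and CDd7. The step of 2.21 from NPd7 to CDd14 exceeded the larger SD.

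IGHM is the mu heavy chain of IgM. It measured 5.90, 5.12 and 6.62 in NPd7 pools 1, 2 and 3, and 4.78, 4.46 and 5.52 in CDd7 (log2). In NPd14 it measured 6.84, 5.30 and 6.86, and in CDd14 5.73, 6.56 and 5.73. CDd7 pools 1 and 2 were the lowest of all. These levels lie close to the filter, where the size of a fold depends on the floor that GCRMA sets.

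IGHM was 0.96 ± 0.54 lower in CDd7 than in NPd7 (log2 difference ± SE), with overlap, and 0.33 ± 0.59 lower in CDd14 than in NPd14, also with overlap. Between the days in CD it was 1.09 ± 0.42 higher at day 14, 2.12-fold, and the pools did not overlap, with a gap of 0.21. In NP the day difference was 0.45 ± 0.67. The day 7 difference was -0.59 without NPd7 pool 3 and -1.34 without NPd7 pool 2, and that of day 14 ran from -0.84 (without NPd14 pool 2) to -0.07 (without NPd14 pool 1 or 3). Its order of groups placed CDd7 last, beyond the SD, as for PIGR, while the means of NPd14, CDd14 and NPd7 lay within their SD of the next.

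DERL3 is derlin 3, a membrane protein of the endoplasmic reticulum that helps dispose of misfolded secretory proteins and is abundant in secretory cells. Its bright probe set measured 9.40, 8.97 and 9.40 in NPd7 pools 1, 2 and 3, and 9.89, 8.66 and 8.17 in CDd7 (log2). At day 14 it measured 8.95, 7.82 and 9.84 in NPd14 and 8.42, 7.92 and 7.84 in CDd14. CDd7 pool 1 was the highest of the 12 arrays and NPd14 pool 2 the lowest. Groups overlapped in all 4 comparisons, while NPd7 and CDd14, which differ in both day and outcome, did not. The other DERL3 probe set read 1.06 to 1.09 on every array and carries no difference that could be read.

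The DERL3 mean was 0.35 ± 0.53 lower in CDd7 than in NPd7 and 0.81 ± 0.61 lower in CDd14 than in NPd14, 1.75-fold (log2 difference ± SE). Between the days it was 0.85 ± 0.54 lower at day 14 in CD, 1.80-fold, and 0.39 ± 0.60 lower in NP. In order of the means, NPd7, CDd7, NPd14 and CDd14 each lay within their SD of the next. Alone of the 4 genes, DERL3 had its lower mean at day 14 in CD as well as in NP. Its day 7 outcome difference was 0.02, without direction, when CDd7 pool 3 was left out, and its day difference in NP was 0.14 higher at day 14 without NPd14 pool 2. The day 14 outcome difference ran from -1.33 (without NPd14 pool 2) to -0.32 (without NPd14 pool 3), and the day difference in CD was -0.36 without CDd7 pool 1.

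**Figure D2:**
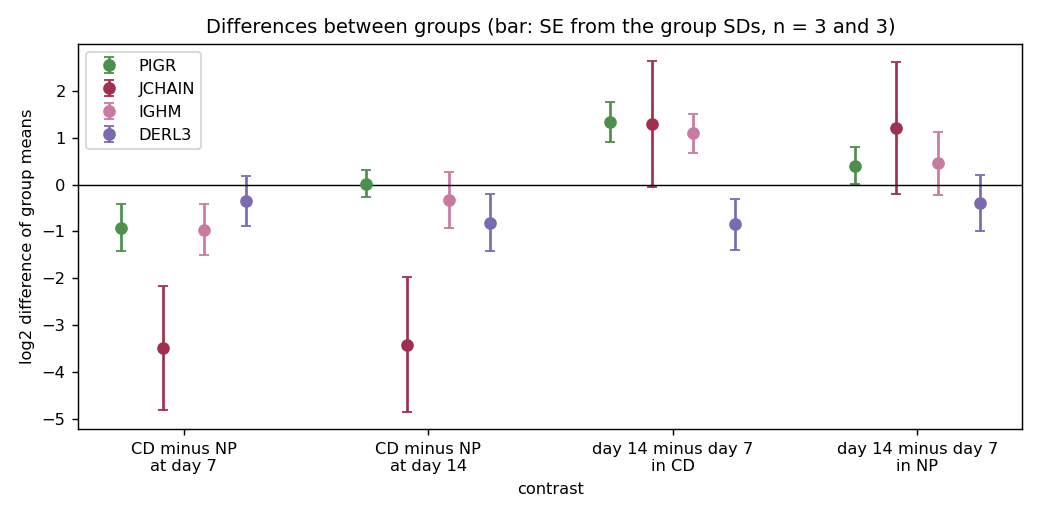
Log2 difference of the group means of PIGR, JCHAIN, IGHM and DERL3 for CD minus NP at each day and for day 14 minus day 7 in each outcome; bars are the SE from the SDs of 3 and 3 pools. JCHAIN lay at -3.49 and -3.41 between outcomes, and PIGR at -0.92 on day 7 against 0.02 on day 14.

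Among the 4 genes, groups that do not overlap were seen for JCHAIN at day 7 (lower in CD) and for PIGR and IGHM between days in CD (higher at day 14). Over the 13449 kept probe sets, 19.1% did not overlap and were lower in CD at day 7. For the days in CD, 24.9% did not overlap and were higher at day 14. At day 14, CD and NP did not overlap in either direction for 11.4% of the probe sets, and NPd14 and NPd7 for 21.6%, and for none of the 4 kept member probe sets in either case. These shares are the background of the array, and nothing is read from the members' counts against them, since the genes were selected with these values known.

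The receptor and its cargo were set against each other, and their group means had r = 0.67. Each gene was centred on its 12-array mean, and the JCHAIN deviation was taken from that of PIGR. The result was -1.91, -0.66 and -0.72 in NPd7 pools 1, 2 and 3 and -0.48, 2.33 and 2.55 in CDd7 (log2). It was -2.30, -0.01 and -3.38 in NPd14 and 0.00, 2.48 and 2.09 in CDd14. All 6 values in NP were negative, and 4 of the 6 in CD were above 2, in pools 2 and 3 of both days. In CDd7 pools 2 and 3 PIGR itself lay below its mean (-1.71 and -0.34), and in CDd14 pools 2 and 3 above it (0.61 and 0.43). JCHAIN spread more than PIGR (SD over the 12 arrays 2.39 against 0.71), so this quantity mostly follows JCHAIN with its sign reversed.

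The group means of this quantity were below 0 in NPd7 (-1.10 ± 0.70, SD, n = 3) and NPd14 (-1.90 ± 1.72), and above 0 in CDd7 (1.47 ± 1.69) and CDd14 (1.52 ± 1.34). The pools of the outcomes did not overlap at day 7 (-0.48 against -0.66 at the nearest) and met at day 14 (0.00 against -0.01). In their own group means, PIGR differed mainly between CDd7 and the other groups, and JCHAIN between CD and NP on both days.

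**Figure D3:**
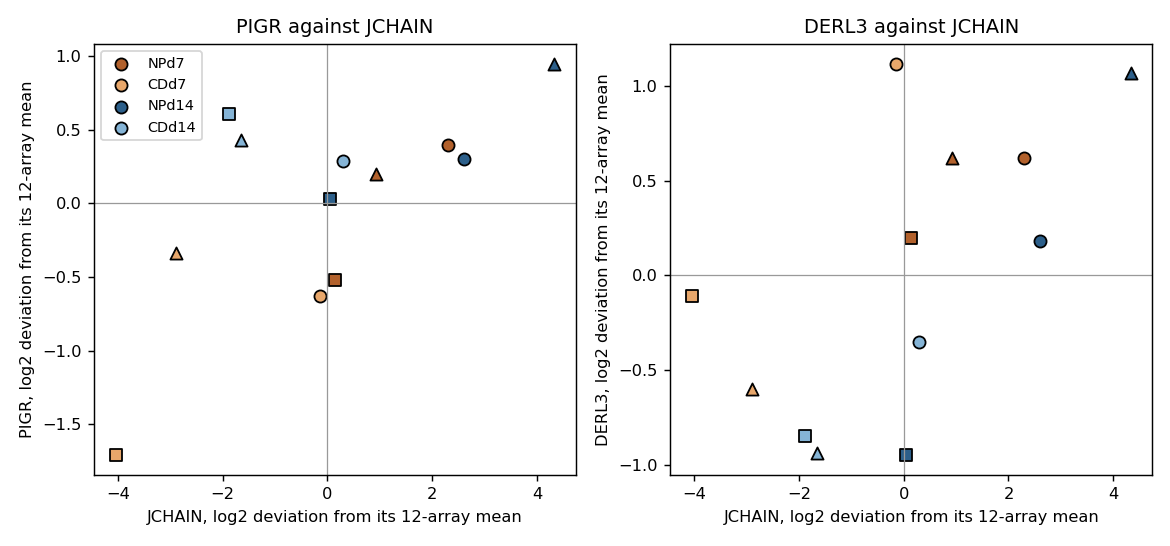
Log2 deviation of PIGR (left) and DERL3 (right) from their 12-array means against that of JCHAIN, 1 point per pool, with the colour for the group and the symbol for the pool number (circle 1, square 2, triangle 3). PIGR and JCHAIN followed each other with r = 0.65, and CDd14 pools 2 and 3 combined a JCHAIN below its mean with a PIGR above its own.

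Over the 12 arrays, PIGR followed IGHM (Pearson r = 0.85, Spearman rho = 0.83) more closely than JCHAIN (r = 0.65, rho = 0.48) and did not follow DERL3 (r = 0.00, rho = -0.08). These are descriptions of 12 points in 4 groups that share RNA, labelling and hybridisation. Without CDd7 pools 1 and 2, the points farthest from the median of PIGR, the r of PIGR with JCHAIN was 0.48 and with IGHM 0.74. Centred on the group means, so that only differences among pools of a group count, JCHAIN and DERL3 had the highest r of the 6 pairs, 0.90, against 0.61 before centring. PIGR with IGHM gave 0.72 and PIGR with JCHAIN 0.62 after centring.

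The genes most like PIGR over the 12 arrays were PCMTD1 (r = 0.98), RNASET2 (0.98), the epidermal growth factor family ligand NRG1 (0.98), AFF1 (0.97) and the sialyltransferase ST3GAL6 (0.97). TMEM129 (-0.98), GDE1 (-0.96) and CNOT1 (-0.96) ran most strongly the other way. For IGHM the leading genes were FERMT3 (0.96), an integrin adaptor of blood cells, the transglutaminase F13A1 (0.95), the hyaluronan receptor CD44 (0.95), TMEM156 (0.95) and RGS1 (0.95), which dampens G protein signals in lymphocytes. HSD17B4 (-0.95), DIMT1 (-0.94) and XXYLT1 (-0.94) were least like it.

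For JCHAIN they were MFSD10 (r = 0.93), FAM133B (0.93), ZBTB24 (0.92), TBC1D20 (0.91) and RRN3 (0.90). The chaperone HSPH1 (-0.95), its partner STIP1 (-0.94) and GTF2IRD2 (-0.91) were lowest. For DERL3 they were SLC35A5 (0.86), RXRB (0.86), RPS7 (0.85), FMO2 (0.84) and BROX (0.84), with TUBB (-0.88), BUD23 (-0.88) and HSD11B1 (-0.87) at the other end. Each list holds the extremes among 6780 other genes, and no gene was among the 5 most like for more than 1 of the 4.

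The label of plasma cell transcripts was checked against other genes of B cells and plasma cells. Of 41 genes in that list, 19 had a probe set with a single symbol, and 13 of these 19 did not pass the filter, with medians of 1.85 to 3.06 (log2). They include MZB1, a plasma cell chaperone cofactor (2.25 to 2.37), CD79A of the B cell receptor (1.90 to 1.96), the B cell surface protein MS4A1 (2.57 to 2.91), the plasma cell ectoenzyme CD38 (2.46 to 2.55) and the coactivator POU2AF1 (2.88 to 3.64). These 5 were above the filter on 0 of 12 arrays. IGLL1, the single other immunoglobulin chain on the array with its own symbol, read 2.21 to 2.25. XBP1, IRF4, TNFRSF17, CD79B and SDC1 have no probe set with a single symbol here. The 6 that passed were CD40, BLNK, PRDM1, SLAMF7, PIM2 and ITGB7, which other cell types express as well. PRDM1 was above the filter on 11 arrays and read up to 7.99, and SLAMF7, a receptor of plasma cells and killer cells, was above it on 3. The plasma cell part of the label therefore rests on few of the genes that could be read. On the epithelial side, EPCAM, a surface protein of epithelial cells, had means of 15.30 to 15.44 in the 4 groups. That shows epithelial RNA in every group but not that PIGR followed it. The r with PIGR was 0.29 for EPCAM, and the 16 epithelial markers had a median of 0.17 (-0.92 to 0.92).

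The other genes around the route were tested with limma over all 13449 kept probe sets, with Benjamini-Hochberg adjustment and a threshold of 0.05 on the adjusted p. At that threshold 3.74% of all probe sets were called for CD against NP at day 7, 0.0223% for CD against NP at day 14, 24% between days in CD and 0.327% between days in NP. The difference of the day effects between CD and NP called 0%, with 1900 probe sets at an unadjusted p under 0.05. No gene of the lists passed at day 14 between outcomes, between days in NP, or for the difference of the day effects, so the calls below come from day 7 and from the days in CD. Between outcomes, an unadjusted p under 0.05 (limma) was found for 4032 of the 13449 probe sets at day 7 and 993 at day 14. Between days it was found for 5281 in CD and 2196 in NP. At day 7 such p values were thus frequent over the whole array, and the unadjusted counts of list genes below have that background. Of NPd7 and NPd14, pools of the same number deviated together in 3 of 3 pairs (r = 0.16 to 0.62), and with the pool number as a block the 44 probe sets called between days in NP became 21 over all 12 arrays and 0 over the 6 NP arrays (2835 at an unadjusted p under 0.05). Pool by pool, NPd14 minus NPd7 was -0.10, 0.55 and 0.74 for PIGR, 0.30, -0.11 and 3.41 for JCHAIN, 0.95, 0.18 and 0.23 for IGHM and -0.45, -1.15 and 0.44 for DERL3 in pools 1, 2 and 3 (log2).

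The single-gene calls at day 7 named below were all lost when only the 6 arrays of that comparison were fitted, and those of CCL28, FCGRT, CALR, CD8A, LCK, CLDN5 and GYPC also without the filter. Equal array medians ended the calls of KDELR1 at day 7 and of SEL1L and CDH1 between days. Between days in CD, fitting only 6 arrays ended the calls of CCL28, VCAM1, PIM2, SEL1L, AGR2, CD69, KRT7 and CDH1. Leaving out the filter ended those of CCL28, VCAM1, CCL25, PIM2, SYVN1, DMBT1, CD69 and KRT7, quantile normalization that of CCL25, and the replicate block that of CD69.

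Of the 6 measured genes of B cells and plasma cells other than the members, limma called 0 at day 7 (5 at an unadjusted p under 0.05), with a median log2 difference of -0.08 against -0.01 over all 6781 genes. With the replicate block, 1 of the 6 was called higher in CDd7 and 1 lower. PRDM1, the factor that drives plasma cell differentiation and is also found in T cells and epithelium, measured 6.71, 5.90 and 7.99 in NPd7 and 5.50, 3.60 and 4.93 in CDd7 (log2). The CDd7 pools were all below the NPd7 pools. The difference of -2.19 ± 0.60 had an adjusted p of 0.0609 (limma) and missed the threshold. A dimmer PRDM1 probe set read 1.35 lower in CDd7 and also missed it (adjusted p = 0.0765, limma). The r of PRDM1 was 0.82 with PIGR, 0.81 with JCHAIN and 0.79 with IGHM. Over the 6 genes the median r was 0.19, 0.06 and 0.02 with PIGR, JCHAIN and IGHM. BLNK (-0.82, -0.49 and -0.75 in this order) and PIM2 (-0.76, -0.83 and -0.59) ran the other way. From CDd7 to CDd14, 2 of the 6 genes fell and 0 rose. BLNK, an adaptor of the B cell receptor, fell by 1.49 (adjusted p = 0.00566, limma) and kept its call in 19 of 19 alternatives. The kinase PIM2 fell by 1.5 (adjusted p = 0.027, limma), and the call was lost without CDd14 pool 1, CDd14 pool 3, CDd7 pool 2 or CDd7 pool 3, with an adjusted p of up to 0.106.

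Of the signals that recruit plasma cells and keep them alive, 8 of 23 were measured. CCL28, a chemokine of mucosal epithelium that draws antibody-secreting cells, measured 10.13, 9.48 and 10.00 in NPd7 pools 1, 2 and 3 and 8.81, 7.75 and 8.89 in CDd7 (log2). In NPd14 it measured 9.83, 9.41 and 10.14, and in CDd14 9.49, 9.91 and 9.47. All 3 CDd7 pools lay below the other 9 arrays. CCL28 was the single gene of the 8 called at day 7, where it was 1.38 ± 0.32 lower in CD, 2.61-fold (log2 difference ± SE, adjusted p = 0.0452, limma). From day 7 to day 14 in CD it rose by 1.14 ± 0.32, 2.21-fold (adjusted p = 0.0283, limma). The day effect was 1.21 larger in CD than in NP, with an adjusted p of 0.309 (limma).

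Both CCL28 calls depended on single pools. The day 7 call was lost without NPd7 pool 1 or 3, CDd7 pool 1 or 2, NPd14 pool 1 or any one of the CDd14 pools, with an adjusted p of up to 0.185 (limma) and as low as 0.0266 in another alternative. The call between days was lost without CDd7 pool 2 or any one of the CDd14 pools, with an adjusted p of up to 0.0882. CCL28 followed PIGR with r = 0.92 and rho = 0.79 over the 12 arrays, and with r = 0.97 after centring on the group means. Without CDd7 pools 1 and 2 the r was 0.72, and leaving out 1 array at a time gave 0.81 to 0.95. Among 6780 genes CCL28 ranked 95th by its r with PIGR and 5th after centring. Its r was 0.76 with JCHAIN and 0.83 with IGHM.

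Between days in CD, 1 of the 8 recruitment and survival genes rose (CCL28) and 2 fell (limma). VCAM1, an adhesion molecule for lymphocytes, fell by 3.10 (adjusted p = 0.024, limma) and the chemokine CCL25 by 0.66 (adjusted p = 0.041). The VCAM1 call was lost without CDd14 pool 1 or 3 or CDd7 pool 1 or 2 (adjusted p up to 0.0959), and the CCL25 call without any one CDd7 or CDd14 pool, NPd14 pool 1 or NPd7 pool 3 (up to 0.127). TNFSF13, the plasma cell survival factor APRIL, was 1.08 lower in CDd7 than in NPd7 (adjusted p = 0.0603), and CXCL12, a chemokine for plasma cells, was 2.18 lower (adjusted p = 0.0657). Both missed the threshold. All 3 CDd7 values of CXCL12 (2.65 to 3.06) lay below the filter, and its difference was -1.28 without NPd7 pool 3 and -2.68 without NPd7 pool 2, where it passed the threshold, as it did with the replicate block (adjusted p = 0.0358). TNFSF13B and IL6 did not pass the filter. The median of the 8 genes was -0.62 at day 7 and 0.37 between days in CD, against -0.01 and 0.00 over all genes.

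**Figure D4:**
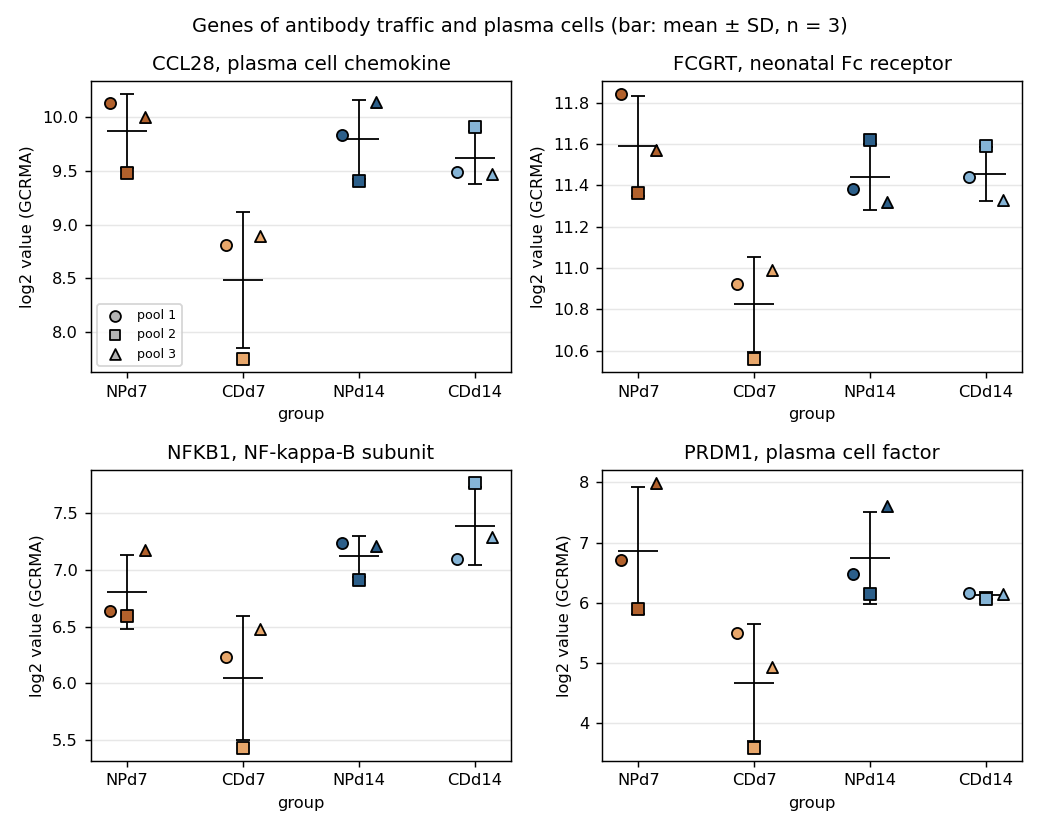
Log2 value (GCRMA) of CCL28, FCGRT, NFKB1 and PRDM1 in each pool of the 4 groups, with the mean and SD of 3 pools as bars and the pool number as the symbol; each panel has its own vertical range. All 3 CDd7 pools of CCL28 (7.75 to 8.89) lay below the other 9 arrays.

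Genes known to induce PIGR, and those of the vesicle traffic that carries it, made up a list with 31 measured genes. FCGRT, the receptor that carries IgG across epithelium, was 0.76 ± 0.16 lower in CDd7 than in NPd7 (10.82 ± 0.23 against 11.59 ± 0.24), the single call of the 31 at day 7 (adjusted p = 0.0401, limma). That call was lost without NPd7 pool 1 or 3, CDd7 pool 1 or 2, NPd14 pool 1 or any one of the CDd14 pools, with an adjusted p of up to 0.167. From CDd7 to CDd14 it rose by 0.63 (adjusted p = 0.0223), and this call was lost without CDd14 pool 1 or 2 or CDd7 pool 2 (up to 0.0891).

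Between days in CD, 7 of the 31 rose and 1 fell, with a median difference of 0.12 against 0.00 over all genes. Over all kept probe sets 24% were called in that comparison. The NF-kappa-B subunit NFKB1, which acts on the PIGR gene, measured 6.23, 5.43 and 6.48 in CDd7 and 7.10, 7.77 and 7.29 in CDd14 (log2). It was lowest in CDd7, and the pools of the 2 days did not overlap in CD. NFKB1 rose by 1.34 ± 0.28, 2.53-fold (adjusted p = 0.0103, limma). STAT6, the factor through which interleukin 4 acts, rose by 0.99 (adjusted p = 0.00621), the interferon gamma receptor chain IFNGR2 by 0.88 (adjusted p = 0.00717) and the tumour necrosis factor receptor TNFRSF1A by 0.68 (adjusted p = 0.00947, all limma). These 4 kept their calls in 19 of 19 alternatives. The gene that fell was NFKBIA, an inhibitor of NF-kappa-B (-1.44, adjusted p = 0.0216), and no gene of the list was called as fallen without CDd7 pool 2, CDd14 pool 1 or CDd14 pool 3. Without CDd7 pool 2 the list gave 4 risen and 0 fallen, and without CDd14 pool 2 it gave 4 and 1. NFKB1 followed PIGR with r = 0.91, the highest of the 31 genes, whose median r was 0.26 and lowest -0.91. RELB and IRF1 have no probe set with a single symbol here, and RAB25, a small GTPase of epithelial recycling, was not called in any comparison (adjusted p = 0.808 at day 7 and 0.482 between days in CD).

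ER chaperones and export in antibody secretion, the folding machinery that a secretory cell loads with antibody or other product, mostly had means that ran the other way from those of PIGR. Of 36 measured genes, 28 had a higher mean in CDd7 than in NPd7, with a median of 0.33 against -0.01 over all genes. By limma 1 rose and 1 fell at day 7, and 19 of the 36 had an unadjusted p under 0.05. CALR, calreticulin, was 1.06 higher (adjusted p = 0.0452) and KDELR1, which returns chaperones to the ER, was 0.60 lower (adjusted p = 0.0368, both limma). The CALR call was lost without CDd14 pool 1 or 3, CDd7 pool 1 or 2, NPd14 pool 1 or NPd7 pool 1 or 3 (up to 0.188). Dimmer probe sets of HSPA5 and PDIA4, not counted here, were also higher in CDd7, HSPA5 by 1.82 (adjusted p = 0.035) and PDIA4 by 1.25 from a mean of 3.40 below the filter (adjusted p = 0.0219). They were not followed through the alternatives. The KDELR1 call was lost without any one CDd14 pool, CDd7 pool 2, NPd14 pool 1 or NPd7 pool 1 or 3 (up to 0.151).

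Between days in CD, 14 of the 36 fell and 0 rose (limma), with a median of -0.38 against 0.00 over all genes. The thiol oxidase ERO1A fell by 3.19 (adjusted p = 0.0113), CRELD2 by 2.20 (adjusted p = 0.0124), the translocon subunit SEC61G by 1.14 (adjusted p = 0.00668) and calnexin, CANX, by 0.64 (adjusted p = 0.00981). These 4 kept their calls in 19 of 19 alternatives. The count fell to 4 without CDd7 pool 1, CDd7 pool 2 or CDd14 pool 3 and to 5 without CDd14 pool 1. HSPA5, the main ER chaperone, had a mean of 13.83 to 14.19 and was not called through its brightest probe set (-0.36 between days in CD, adjusted p = 0.103), whereas its dimmer one fell by 1.65 (adjusted p = 0.0114). DERL3 itself had a median r of 0.16 with the 36 genes, against -0.59 for PIGR.

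In the list of ER-associated degradation, to which DERL3 belongs by function, 18 other genes were measured and 0 were called at day 7 (limma, 5 at an unadjusted p under 0.05). Its relatives DERL1 and DERL2 had means 0.65 and 0.30 higher in CDd7 than in NPd7 (adjusted p = 0.0953 and 0.196), where DERL3 was 0.35 lower. In CD the adaptor SEL1L rose between the days by 0.46 (adjusted p = 0.0344) and its ligase SYVN1 fell by 1.60 (adjusted p = 0.0455). The SEL1L call was lost without any one CDd14 pool or CDd7 pool 2 or 3 (up to 0.111). The SYVN1 call was lost without any one CDd14 pool, CDd7 pool 1 or 2, NPd14 pool 1 or NPd7 pool 1 or 3 (up to 0.132).

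Other products of the uterine epithelium were set beside PIGR. Of 14 measured genes of mucosal defence, 3 rose and 0 fell between days in CD (limma). The beta-defensin EBD rose by 7.32 from a CDd7 mean of 3.36, below the filter, to 10.68 ± 3.02 in CDd14 (adjusted p = 0.00388), and the size of that rise depends on the floor. The disulfide isomerase AGR2, which mucus cells need, rose by 0.97 (adjusted p = 0.0152, lost without CDd14 pool 2, up to 0.0604). DMBT1, a scavenger protein of mucosal secretions, rose by 2.15 (adjusted p = 0.0285). That call was lost without CDd14 pool 2 or 3 or any one CDd7 pool (up to 0.0868). LTF, lactoferrin, had means of 15.19 to 15.34 through its brightest probe set and was not called in any comparison. A dimmer LTF probe set, not counted here, was not called either, but its means differed more. It read 1.45 lower in CDd7 than in NPd7 (adjusted p = 0.167) and 1.15 lower in CDd14 than in NPd14 (adjusted p = 0.763, both limma). Between days it read 1.12 higher at day 14 in CD (adjusted p = 0.23) and 0.81 higher in NP (adjusted p = 0.569, both limma). Without CDd14 pool 2 the count of genes that rose was 1, and it was 2 without CDd14 pool 3 or any one CDd7 pool.

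Markers of the cell types in the biopsy moved with some of these differences. Of 16 epithelial markers 0 were called at day 7 (limma, 5 at an unadjusted p under 0.05), with a median of -0.04. Their mean deviation from the 12-array level was -0.11 to 0.00 in CDd7 and -0.08 to 0.00 in NPd7, but members went both ways. KRT7 was 0.99 lower in CDd7 (adjusted p = 0.0701) and CLDN7 1.01 higher (adjusted p = 0.0717). Their part in the PIGR difference was not tested. Between days in CD, 2 of the 16 rose, KRT7 by 0.99 (adjusted p = 0.0341) and CDH1 by 0.44 (adjusted p = 0.0342). Of these, KRT7 lost its call without CDd14 pool 2 or 3 or CDd7 pool 1 or 2, and CDH1 without CDd14 pool 1 or 2, NPd14 pool 1 or any one CDd7 pool. A dimmer CDH1 probe set read 0.48 lower at day 14 (adjusted p = 0.0603).

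Of 14 stromal markers 8 fell and 0 rose from NPd7 to CDd7 (limma), with a median of -2.88. Their mean deviation ran from 1.09 to 1.82 in the NPd7 pools and from -1.57 to -0.41 in those of CDd7, and at day 14 from -0.61 to 0.92 (NPd14) and from -0.60 to -0.09 (CDd14). The count was 0 without NPd7 pool 1, NPd7 pool 3 or CDd7 pool 2. It was 2 without CDd7 pool 1 or CDd14 pool 2, 3 without CDd14 pool 1 and 1 without CDd14 pool 3. Of 12 markers of T and natural killer cells 3 fell (CD8A, CD8B and LCK), all 12 had a lower mean in CDd7, and the median was -1.12. That count was 0 without NPd7 pool 1, NPd7 pool 3 or CDd7 pool 2, and 1 without CDd7 pool 1, NPd14 pool 1 or any one CDd14 pool. All 6 CD values of CD8B (3.09 to 3.84) lay below the filter.

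In CD, where PIGR and IGHM were higher at day 14, all 12 of these markers had a higher mean at day 14, with a median of 0.72, and 2 rose (limma). LCK, a kinase of T cell signalling, rose by 1.30 (adjusted p = 0.014) and kept its call in 19 of 19 alternatives. A dimmer LCK probe set was not called. It was 0.53 higher at day 14 in CD (adjusted p = 0.138) and 0.63 lower in CDd7 than in NPd7 (adjusted p = 0.125, both limma). The activation marker CD69 rose by 2.24 (adjusted p = 0.041), a call lost without any one NPd7 or CDd14 pool or CDd7 pool 1 or 2 (up to 0.145). The mean deviation of the T and natural killer list ran from -0.23 to 1.03 in the NPd7 pools and from -1.52 to -0.15 in those of CDd7, and at day 14 from -0.40 to 0.65 (NPd14) and from -0.23 to 0.43 (CDd14). Its genes had a median r of 0.76 with PIGR and with IGHM and 0.53 with JCHAIN. Of the endothelial and blood markers 2 of 16 were measured and both were called at day 7. The endothelial junction protein CLDN5 was 2.37 higher in CDd7 (adjusted p = 0.0368) and GYPC of the red cell membrane 0.98 lower (adjusted p = 0.0434). Both calls were lost without NPd7 pool 1 or 3, CDd7 pool 1 or 2, NPd14 pool 1 or any one CDd14 pool (up to 0.146 and 0.185). CLDN5 fell by 4.48 between days in CD (adjusted p = 0.00176), to a CDd14 mean of 1.92 below the filter, and kept that call in 18 of 18 alternatives. Of 7 macrophage and dendritic cell markers 0 were called in any comparison (limma, 1 at an unadjusted p under 0.05 at day 7). What part these cells have in the differences of the 4 genes was not tested.

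RNA integrity and labelling also moved with the groups. The log2 excess of 3′ over 5′ control probe sets was averaged over GAPDH, EF1A, actin and cyclophilin. Its mean was lower at day 7 than at day 14 within each outcome, and lower in CD than in NP on each day. This excess was 1.20 ± 0.15 for CDd7 and 1.42 ± 0.14 for NPd7, and 1.44 ± 0.08 for CDd14 and 1.70 ± 0.13 for NPd14 (log2, SD, n = 3). Its r over the 12 arrays was 0.72 with PIGR, 0.78 with JCHAIN, 0.73 with IGHM and 0.17 with DERL3, and 0.45 to 0.54 for all 4 after centring on the group means. Its part in the differences was not tested. Array medians lay between 4.89 and 5.06, and the r of array pairs across probe sets was 0.921 to 0.988 inside a group and 0.862 to 0.981 for arrays of different groups.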

How the data were processed

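Total RNA of 12 endometrial pools was hybridised to Affymetrix bovine 3′ arrays. The authors deposited log2 values per probe set, made with GCRMA per the submitters' processing notes. GCRMA corrects the background and normalizes between arrays, and it draws dim probe sets to a floor. No tool version is stated there. After 112 control probe sets were left out, 13449 of 24016 (56%) had a log2 value above 4 on at least 3 arrays. The annotation gives 1 symbol to 13292 probe sets, several to 86 and none to 10638, and gene identifiers changed 0 symbols. A gene is its kept probe set with the highest mean.

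limma 3.58.1 in R 4.3.3 fitted 4 group means over the 12 arrays (8 residual and 2.13 prior degrees of freedom), with 5 contrasts and Benjamini-Hochberg adjustment over all kept probe sets. The scripts were tested on simulated data. The members and the 12 lists were chosen with earlier results of these data known. Named genes are all member probe sets, 30 genes set by name, up to 4 called genes of a list and contrast with the smallest p (or up to 2 where none passed; some are left out for length), and the 5 most and 3 least like each member. CD38, IGLL1, NFKBIA and second probe sets were named after their values were seen. Alternatives were quantile normalization, equal array medians, other filters, trended moderation, a replicate block, only the arrays compared, and each pool left out. Same-numbered NPd7 and NPd14 pools deviated together in 3 of 3 pairs (r = 0.16 to 0.62), a pairing read from the data and not from the labels. Same-numbered pools of different outcome reached r = 0.36 (NPd7 with CDd7), so that pairing is not established. The number of arrays limits the precision.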

Additional observations from a re-analysis of the deposited data

Results flagged for a closer look

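For 4 of the 162 measured genes of the lists, all pools moved one way under one comparison and the opposite way under its counterpart. Groups without overlap were frequent over the 13449 kept probe sets. Between days, 24.9% did not overlap and were higher at day 14 in CD, and 21.6% did not overlap in either direction in NP. The share with opposite directions was not counted over all probe sets, so nothing is read from the number of these genes. CXCL12, a chemokine for plasma cells, was 0.73 higher at day 14 than at day 7 in CD and 1.55 lower in NP on the log2 scale. All 6 of its CD values (2.65 to 3.88) lay below the filter of 4, so the CD difference is read near the floor, and the NP value was -0.64 without NPd7 pool 3. TFF3, a peptide of mucus secretions, was 0.54 higher in CD and 0.50 lower in NP between the same days. CD8B, a chain of the cytotoxic T cell coreceptor, was 0.39 higher in CD and 0.91 lower in NP, and its 6 CD values (3.09 to 3.84) were also below the filter. The epithelial keratin KRT18 differed by -0.43 between CD and NP at day 7 and by 0.37 at day 14. The limma test of the difference itself missed the threshold in each case, with an adjusted p of 0.311, 0.311, 0.244 and 0.253 for CXCL12, TFF3, CD8B and KRT18 in this order.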

How the results depend on the processing

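Every member difference kept within 1 SD of its value under all alternatives, and every r between members stayed inside its 95% interval (Fisher) when 1 array was left out. With 3 pools in a group, leaving 1 out moves the group mean by less than its SD. The interval of an r over 12 arrays is also wide, so neither bound shows stability against single pools. Within the first bound, the DERL3 day difference in NP went from -0.39 to 0.14. The JCHAIN difference of differences ran from -1.06 to 1.19. At day 7, 503 probe sets were called (242 higher and 261 lower in CD), 348 and 193 with equal array medians, 161 in all without a filter, 3 with only the 6 arrays compared, and 1455 with the replicate block. At day 14 the count of 3 became 6 without a filter and 0 with equal medians, quantile normalization, the stricter filter, trended moderation, the block or only 6 arrays. Between days in NP the count of 44 became 24 with equal medians, 9 with the stricter filter, 17 with trended moderation, 21 with the block, 0 with 6 arrays, and 0 with the 6 NP arrays and the block, an alternative chosen after seeing the data. The difference of the day effects called 1 without a filter. With each pool left out the counts ran from 0 to 1662 at day 7, 0 to 10 at day 14, 1291 to 3733 between days in CD, 1 to 154 in NP, and 0 to 34 for the difference of the day effects.

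Of the list genes, 17 were called at day 7, but 3 without a filter, 1 with 6 arrays and 33 with the replicate block. Between days in CD 38 were called, and 23 without a filter. With each pool left out these counts ran from 0 to 32 at day 7, 0 to 1 at day 14, 13 to 41 between days in CD, 0 to 5 in NP and 0 to 1 for the difference of the day effects. The cause was not tested. Pools with the same number deviated together (r above 0.1) in 10 of 18 pairs. In NPd7 with NPd14 this held for 3 of 3 pairs (r = 0.16 to 0.62), and in the other 5 pairs of groups for at most 2 of 3. Pools of different outcome reached r = 0.36 (NPd7 with CDd7) and 0.33 (CDd7 with NPd14), above the lowest NP pair. By this rule the numbers were treated as pairs in NP only, but the rule cannot show that the pools share animals.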

Other observations

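JCHAIN was lowest in pool 2 in 4 of 4 groups, and PIGR and IGHM in 3 of 4 each. The sources used here do not say that pool numbers mark a shared day or a shared set of heifers, and pool 3 of CDd14 is so called by the replicate number in its title, which also carries the number 2.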
